A study of Caenorhabditis elegans with 2 samples.

Results

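A set of 8 genes of histone methylation was examined for binding of CEH-82, a homeodomain protein, in Caenorhabditis elegans larvae of the first stage (L1). Binding was mapped by ChIP-seq, in which DNA bound to a protein is pulled down with it and sequenced. The 8 genes, out of 19973 protein-coding genes on the nuclear chromosomes, are mes-2, mes-3, mes-6, mes-4, met-1, set-2, met-2 and set-25. They were chosen by name from the WBcel235 annotation with results of these data in view. A peak was given to a gene when its summit lay at a start, meaning no more than 1000 bp upstream or 200 bp downstream of one of the gene's annotated transcript starts, or when it lay inside the gene. There was 1 group with 2 biological replicates, whole mixed-sex L1 larvae of strain OP212, which carries unc-119(ed3) III and the transgene ddEx58. This line expresses CEH-82 (F45C12.2) with GFP-FLAG fused at its C terminus. The labels name 1 strain for both replicates and no other genotype or treatment, no control library was analysed here, and RNA was not measured. In whole animals, weak binding in many cells and strong binding in few cannot be told apart.

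The values are the authors' peak lists on ce11 (WBcel235). The thresholded list holds 2052 peaks that the authors kept at a threshold on reproducibility. These are the top 2052 by signal of the 30000 entries of the pooled relaxed list. Relaxed lists, labelled as peaks and background, hold 16551 entries for replicate 1 and 30000 for replicate 2. Of 1439 thresholded peaks at protein-coding starts, 1361 overlapped an entry of both replicates, so a thresholded peak need not have been found in each. Signal is the authors' score for a peak and its scale differs between lists, so ranks within each list (1 is the strongest) are given beside it. Read depth is unknown. Signal, rank and distance are what the genes were examined for, and they are given as a description with no test.

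As background, methyl groups on histone tails mark chromatin as active or silent. MES-2, MES-3 and MES-6 form the worm's counterpart of Polycomb repressive complex 2 and methylate H3K27, a silencing mark. MES-2 is the E(z)-like enzyme, MES-6 the counterpart of Esc/EED, and MES-3 a partner that is not itself a methyltransferase. MES-4 and MET-1 methylate H3K36 in transcribed genes, SET-2 is the catalytic subunit of the SET1/COMPASS complex for H3K4 at active promoters, and MET-2 and SET-25 methylate H3K9 in heterochromatin. The mes genes are known for their maternal role in germline survival.

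CEH-82 peaks passed the authors' threshold at the starts of mes-2, met-1 and set-2. These are 3 of the 8 genes (37.5%), beside 9.91% of all protein-coding genes. Each of the other 5 had relaxed entries only. No thresholded peak lay inside any of the 8, and the share of all genes with one inside was not taken. At a start or inside, the count was therefore again 3 of the 8 (37.5%), beside 10.9% of all genes. By mark, 1 of the 3 H3K27 complex genes, 1 of the 2 H3K36 enzyme genes and the H3K4 enzyme gene had a thresholded peak, and neither of the H3K9 enzyme genes did. Signal was 88.6 at mes-2, 33.6 at met-1 and 26.2 at set-2, where 1439 thresholded peaks at protein-coding starts had a median of 43.2 and an interquartile range of 30.05 to 66.97. The mes-2 peak therefore lay above that range, met-1 within it and set-2 below it.

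The sequences of 4 of the peaks are shown, those of the thresholded peaks of mes-2 and set-2 and of the strongest pooled peaks below the threshold, at mes-6 and set-25. The third thresholded peak, at met-1, is not printed, and its motif matches are given in words. They are from the WBcel235 genome (RefSeq), 5′ to 3′ on the strand of the gene. Capitals mark TCGCGC or its reverse complement GCGCGA, and the longer motif CTGCGTCT or its reverse complement AGACGCAG.
mes-2, chrII:14383739-14383968, plus strand, the whole thresholded peak, ending 5 bp before the start: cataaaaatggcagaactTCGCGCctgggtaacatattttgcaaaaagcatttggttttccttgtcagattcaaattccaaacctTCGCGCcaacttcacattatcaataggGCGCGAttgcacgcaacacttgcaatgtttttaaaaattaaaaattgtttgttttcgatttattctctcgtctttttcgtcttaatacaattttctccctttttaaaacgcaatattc
set-2, chrIII:4930383-4930600, minus strand, 218 bp of the thresholded peak: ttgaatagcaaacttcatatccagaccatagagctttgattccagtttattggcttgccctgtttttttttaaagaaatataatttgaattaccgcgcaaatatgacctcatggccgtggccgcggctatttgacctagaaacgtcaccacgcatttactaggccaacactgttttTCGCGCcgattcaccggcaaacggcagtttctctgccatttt
mes-6, chrIV:8511204-8511303, plus strand, 100 bp around the pooled relaxed summit, crossing the start: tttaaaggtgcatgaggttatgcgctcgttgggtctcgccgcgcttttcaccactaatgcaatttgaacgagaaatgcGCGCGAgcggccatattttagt
set-25, chrIII:13292741-13292840, minus strand, 100 bp around the pooled relaxed summit in a coding exon: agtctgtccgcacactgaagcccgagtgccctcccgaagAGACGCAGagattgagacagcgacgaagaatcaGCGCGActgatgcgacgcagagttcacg

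The mes-2 peak held TCGCGC on either strand 3 times, and 2 of those matches lay within the 100 bp at its summit. That motif was picked after the sequence had been seen, so the match supports nothing by itself. Among the 1439 thresholded peaks at protein-coding starts, 199 (13.8%) held it at least once. Among them 2 (0.139%) held 3 or more matches, the mes-2 peak included. The cut-off of 3 is the mes-2 count itself, so this share does not measure how rare such a peak is. The set-2 peak held 1 match, outside the 100 bp at its summit, and the met-1 peak held none. Among the strongest pooled peaks of the 5 genes below the threshold, those of mes-6 and set-25 held 1 match each, and those of mes-3, mes-4 and met-2 held none. The 4 peaks printed are thus also the 4 with a match.

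Another 4 motifs were searched on both strands in the 100 bp at each summit. TAATTA, a palindromic core of homeodomain sites, was in none of the 3 thresholded peaks of these genes and in 1.53% of the 1439 peaks at starts. GAGAGA (24.4% of those peaks), CTGCGTCT (11.95%) and CCCGCC (7.99%) were likewise in none of the 3. Over whole peaks, GAGAGA occurred at mes-2 and CTGCGTCT at met-1, where 37.3% and 15.6% of peaks at starts hold them. Among the strongest pooled peaks of the 5 genes below the threshold, that of set-25 held CTGCGTCT and that of mes-3 held GAGAGA within the 100 bp at the summit, and the mes-3 peak also held TAATTA outside those 100 bp. The other 3 held none of the 4 motifs. The G and C content of those 100 bp was 36.0% at mes-2, 44.0% at set-2 and 49.0% at met-1, beside a median of 48.0% and an interquartile range of 44.0% to 53.0% for the 1439 peaks. The mes-2 summit thus lay outside that range on the low side.

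**Figure D1:**
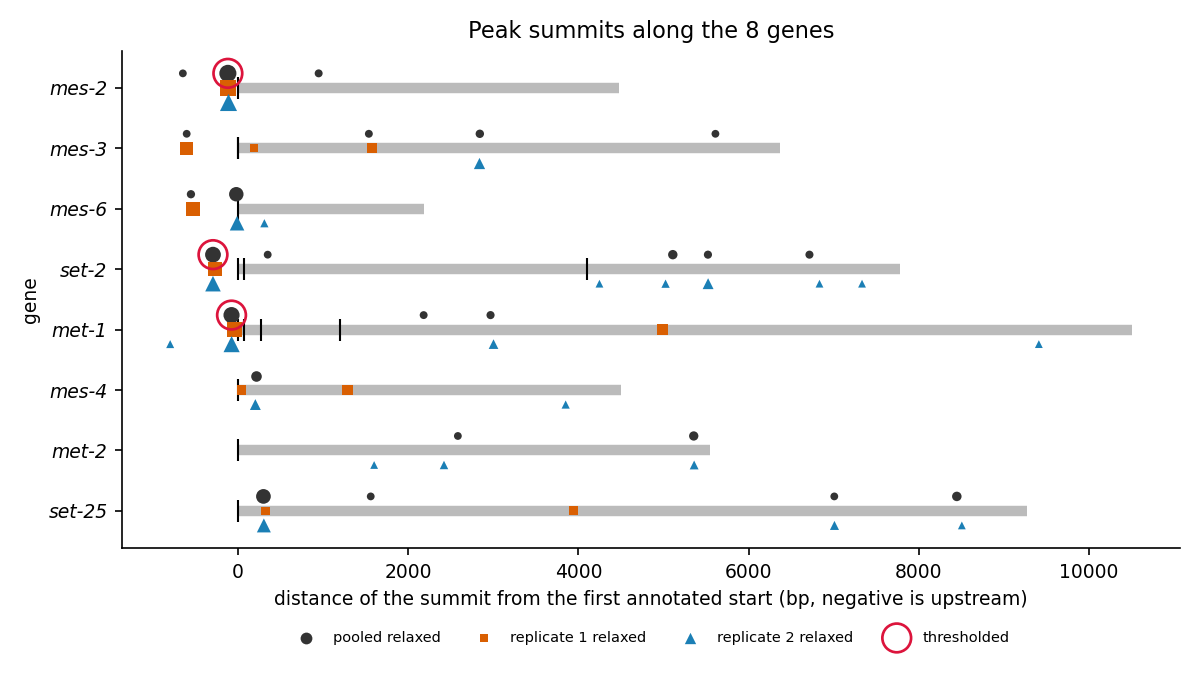
Distance of every peak summit from the first annotated start (bp, negative is upstream) for the 8 genes, with the gene as a grey bar, annotated starts as black ticks, symbols for the pooled and the replicate lists (larger for a better rank) and red rings for thresholded peaks. The ringed peaks of mes-2 (0.119 kb upstream), set-2 (0.294 kb) and met-1 (0.076 kb) have a symbol of both replicates beside them. Most entries inside the genes are small. Larger ones are those of set-25 in the pooled list (299 bp downstream, rank 3031) and in replicate 2 (304 bp, rank 3996).

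The gene for the catalytic subunit of the H3K27 complex had the strongest peak of the 8. At mes-2 (WBGene00003220, chromosome II, 14383973 to 14388454, plus strand, 1 annotated start) the thresholded summit lay 0.119 kb upstream of the start, at 14383854, with rank 224 of 2052. In replicate 1 the peak had a signal of 17.4 and rank 372 of 16551, and in replicate 2 a signal of 69.05 and rank 237 of 30000. The summits of the replicates were 3 bp apart. No other protein-coding gene had this peak in its window, since the nearest upstream gene, sdz-26, lies 593 bp away on the same strand. Of the other pooled entries at mes-2, that at -648 bp (signal 4.65) ranked 27887 and that in an intron (5.49) ranked 20163, and neither replicate listed an entry there.

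For the partner subunits of that complex, the replicates placed their entries at different positions. At mes-6 (WBGene00003224, chromosome IV, 8511284 to 8513469, plus strand), replicate 1 had 1 entry, 531 bp upstream of the start, with a signal of 5.83 and rank 2038. Replicate 2 had its strongest entry 11 bp upstream, with a signal of 11.2 and rank 3262, so the summits lay 520 bp apart. The pooled list held both sites, the one at -20 bp with a signal of 13.5 and rank 3370, the one at -553 bp with 5.89 and rank 17260. All of these lie between mes-6 and tag-77, a gene on the opposite strand 735 bp away, and are in the windows of both genes. With the 2052 strongest entries of replicate 1 alone, mes-6 counted as having a peak at its start (4 of the 8 genes, beside 9.14% of all genes), and with those of replicate 2 alone it did not (3 of the 8, beside 9.86%).

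At mes-3 (WBGene00003221, chromosome I, 4996835 to 5003202, plus strand) the strongest entry of replicate 1 was 603 bp upstream, with a signal of 4.35 and rank 3453. That of replicate 2 was 2828 bp downstream in a coding exon, with a signal of 6.73 and rank 8283. No entry of replicate 2 lay at a mes-3 start. In the pooled list the exonic site had a signal of 6.04 (rank 16328) and the upstream site 4.51 (rank 29537 of 30000). The nearest thresholded peak to the mes-3 start was 70.3 kb upstream, at imb-1 and mfsd-13.1, and that for mes-6 was 78.3 kb upstream, at pdtf-1 and T26A8.4.

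The genes for the H3K36 enzymes differed from each other. At met-1 (WBGene00016603, chromosome I, 4254197 to 4264699, plus strand), which encodes the enzyme that acts with transcription, the thresholded summit lay 76 bp upstream of the first of 4 annotated starts, with rank 1309. Replicate 1 gave a signal of 9.87 and rank 993, replicate 2 gave 26.6 and rank 1249, and their summits were 34 bp apart. The pooled summit, at 4254121, falls inside the neighbouring gene C43E11.12, which runs on the same strand and ends 57 bp before met-1. The start of C43E11.12 is too far upstream for the peak to count as at its start. The other met-1 starts lie 72, 269 and 1196 bp downstream of the first, and no pooled entry other than the thresholded peak lay at any of them.

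At mes-4 (WBGene00003222, chromosome V, 13433050 to 13437545, minus strand), which encodes the enzyme known for carrying H3K36 methylation through the germline, there was no thresholded peak within 25.6 kb of the start, the nearest being that at frm-10. The 1 pooled entry was in a coding exon 208 bp downstream of the start, just past the edge of the start window, with a signal of 7.56 and rank 9519. Replicate 2 had an entry there (204 bp, signal 6.50, rank 9001), and replicate 1 had one 42 bp downstream (3.12, rank 7121). These summits were 162 bp apart. The strongest entry of replicate 1 was elsewhere, in a coding exon 1286 bp downstream (3.50, rank 5582). It lay 1082 bp from the strongest of replicate 2, the entry at 204 bp. The mes-4 entries are thus weak in both replicates, and the met-1 peak is among the 2052 strongest of each.

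The H3K4 enzyme gene set-2 (WBGene00004782, chromosome III, 4922427 to 4930204, minus strand) carried a peak nearer to the threshold. Its summit was 294 bp upstream of the first of 3 annotated starts, with a pooled signal of 26.2 and rank 1730, where the weakest thresholded peak had 22.34 and the strongest relaxed peak outside the list 22.33. Replicate 1 gave a signal of 7.23 and rank 1491, replicate 2 gave 17.9 and rank 1995, and the summits were 20 bp apart. The second and the third start lie 73 and 4104 bp downstream of the first. At the third, from which a shorter transcript begins, only replicate 2 had an entry, with a signal of 3.96 and rank 26844. The peak was in no other gene's window, since C26E6.12, which lies 397 bp upstream, runs on the same strand.

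Neither of the genes for H3K9 enzymes had an entry of any list at a start. At set-25 (WBGene00012802, chromosome III, 13283824 to 13293090, minus strand) the strongest pooled entry, in a coding exon 299 bp downstream of the start, had a signal of 14.9 and rank 3031, the best pooled rank among the 5 genes without a thresholded peak. Its -log10 q was at the ceiling of the list, 3.81, as that of the thresholded peaks was. Replicate 1 had an entry there with a signal of 2.86 and rank 8574, replicate 2 one with 9.68 and rank 3996, and the summits were 18 bp apart. The nearest thresholded peak was 3616 bp upstream, at npp-18, a nuclear pore gene on the opposite strand.

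At met-2 (WBGene00019883, chromosome III, 8375300 to 8380848, plus strand) replicate 1 had no entry, and replicate 2 had 3. The strongest pooled entry was in the 3′ UTR, 5356 bp downstream of the start, with a signal of 6.71 and rank 12777, and it lies in the start window of the next gene, R05D3.12. Upstream, lmbr-1 ends 127 bp before met-2 on the same strand. The nearest thresholded peak was 16.9 kb upstream of the met-2 start, at rfp-1 and R05D3.8.

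**Figure D2:**
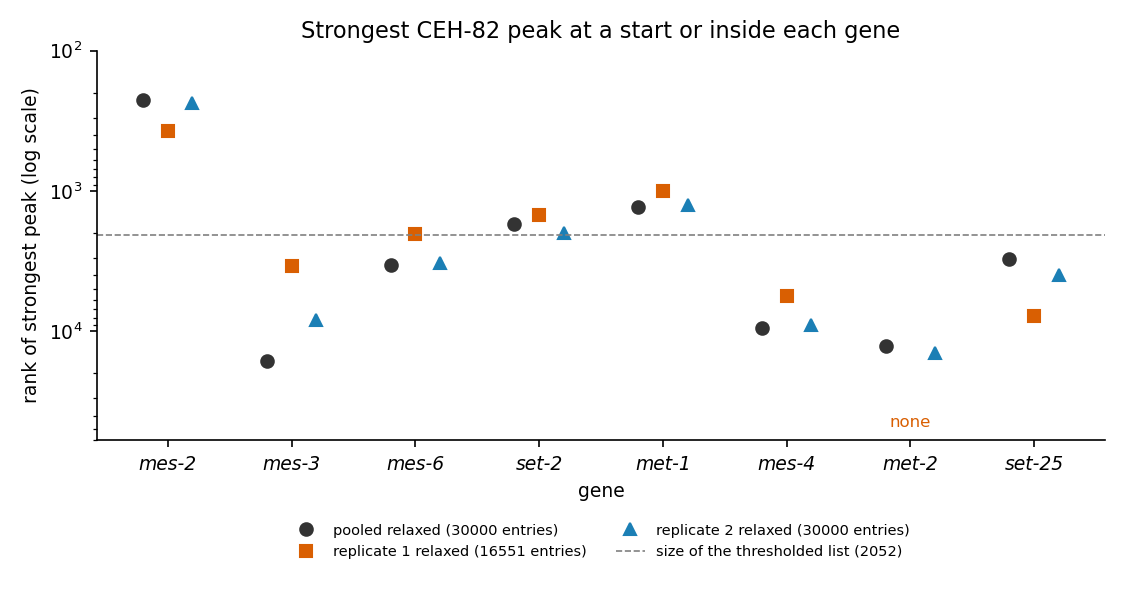
Rank of the strongest entry at a start or inside each gene (log scale, strongest at the top) in the pooled list and in each replicate's relaxed list, with a dashed line at rank 2052. The symbols of mes-2, met-1 and set-2 are above the line in all 3 lists, mes-6 is above it in replicate 1 (rank 2038) only, and met-2 has no entry in replicate 1.

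The replicates thus placed the thresholded peaks of mes-2, met-1 and set-2 within 3, 34 and 20 bp of each other. Over the 1361 thresholded peaks at starts that were matched in both replicates, the median gap between summits was 15 bp, with an interquartile range of 6 to 32 bp. The signal of replicate 2 was 3.97 times that of replicate 1 at mes-2, 2.70 times at met-1 and 2.48 times at set-2, beside a median of 3.54 and an interquartile range of 2.69 to 4.71 for those peaks. The scale differs between the lists, so these ratios are not amounts of binding.

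Below the threshold, all 8 genes had at least 1 pooled relaxed entry at a start or inside, a rule that 60.9% of all protein-coding genes met. The genes are 2186 to 10503 bp long, and 74.3% of the 8338 genes in that range of length met it. At a start, 5 of the 8 had a pooled entry (43.4% of all genes), 6 had an entry of replicate 1 (29.7%) and 4 had one of replicate 2 (43.6%). Both replicates had an entry at or inside 7 of the 8, all but met-2 (36.0% of all genes, of any length). This rule does not ask for the same site. The strongest entries of the replicates lay 520 to 3634 bp apart at mes-3, mes-4, mes-6 and set-25. Other entries of mes-4 and set-25 lay 162 and 18 bp apart. With 500 bp upstream the count was 6, without mes-6 (31.1% of all genes). Replicate 1 alone had an entry at a start or inside 7 of the 8 (44.9% of all genes), and replicate 2 alone all 8 (61.9%). The entries numbered 12 in replicate 1 and 22 in replicate 2.

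The pooled list held 24 entries for the 8 genes, of which 7 were upstream, 8 in introns, 7 in coding exons and 2 in 3′ UTRs. Apart from the 3 thresholded peaks, the other 21 had signals of 4.49 to 14.9 with a median of 5.65, beside a median of 6.26 over the whole pooled list. Of these 21, 15 were in the lower 15000 ranks. Both the whole-list median and the ranks include the 2052 thresholded peaks, which the 21 leave out, so the sets are not alike. Inside the 8 genes the pooled list had 17 entries, or 0.336 per kb, beside 0.276 per kb inside all protein-coding genes. In replicate 1 the values were 0.138 and 0.149 per kb, and in replicate 2 they were 0.336 and 0.277, so the order of the 8 genes and genes at large was not the same in both replicates.

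**Figure D3:**
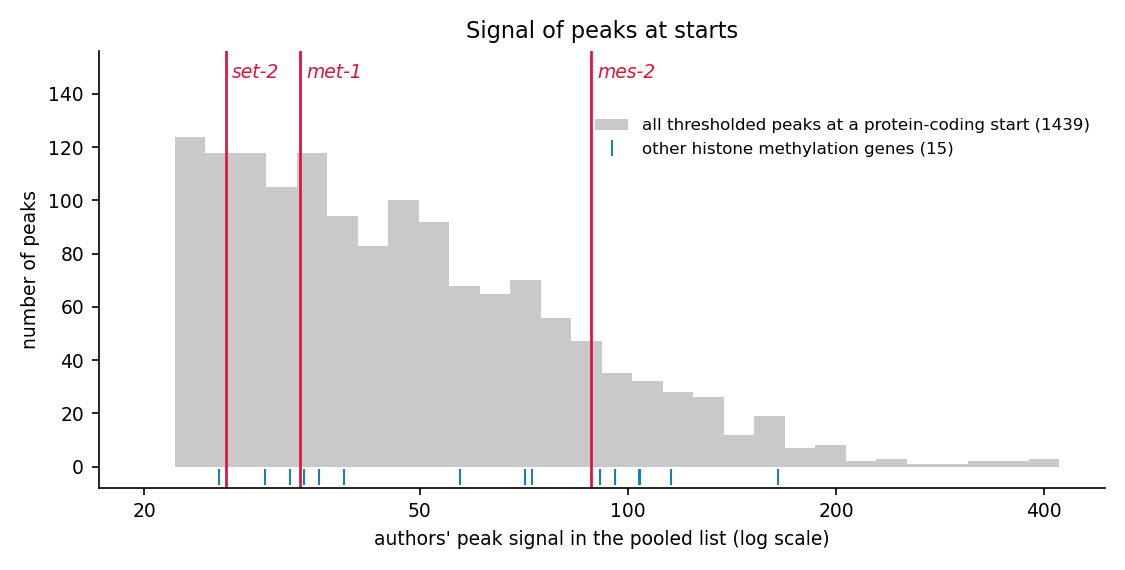
Number of thresholded peaks at protein-coding starts (vertical axis) by the authors' signal in the pooled list (log scale), with red lines for the peaks of set-2 (26.2), met-1 (33.6) and mes-2 (88.6) and blue ticks for 15 other genes of histone methylation. The set-2 and met-1 lines lie in the lower part of the distribution and mes-2 in the upper part.

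Genes whose peak had nearly the same signal in the pooled list and in both replicates were sought by Euclidean distance in log2 signal over the 3 lists. Of the 1980 genes with a thresholded peak at a start, 1879 were compared. The distance can be taken only where all 3 lists give a signal. The nearest to mes-2 were pfd-6 and rde-2, which share a peak (distance 0.052, pooled signal 86.98). The nearest to met-1 were col-2 and ndc-80, which share another (0.080, 33.65), and chat-1 was nearest to set-2 (0.076, 26.2). The 3 lists come from 2 libraries, and the likeness is one of peak height alone.

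Peaks were also found at other genes of the same pathways. Of 43 further genes of histone methylation, 15 had a thresholded peak at a start (34.9%), beside 9.91% of all protein-coding genes, with signals of 25.7 to 164.8 and a median of 70.9. Of these 15, 8 shared their strongest peak with a neighbouring gene's window. When only peaks in the window of 1 gene were counted, 7 of the 43 remained, while mes-2, met-1 and set-2 all did (4.29% of all genes).

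Among 8 genes for COMPASS-type complexes, which encode the MLL-like enzyme of a separate complex and 7 further subunits, 4 had a thresholded peak at a start. The gene for the MLL-like enzyme, set-16, had the strongest of all 43 (signal 164.8, rank 41, shared with drr-2), with rank 62 in replicate 1 and 41 in replicate 2. The core subunit gene ash-2 had 104.1 (rank 163, shared with Y17G7B.20), rbbp-5 had 35.7 (rank 1196, shared with tpp-2) and dpy-30 had 29.8 (rank 1489). The rbbp-5 peak ranked 396 in replicate 1 and 2142 in replicate 2, so it was not among the 2052 strongest of replicate 2. The remaining 4, cfp-1, hcf-1, swd-2.2 and wdr-5.1, had none.

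Of 5 genes named for functions like those of Polycomb repressive complex 1, 3 had a thresholded peak, sor-3 (signal 70.9), sor-1 (57.2) and sop-2 (25.7). The sop-2 peak ranked 2096 in replicate 1, outside its 2052 strongest, and 1818 in replicate 2. The genes for the RING-finger proteins mig-32 and spat-3 had none. Of 9 other methyltransferase genes, 4 had one, set-26 (115.3, shared with tsr-2), set-4, for an H4K20 enzyme (103.7), dot-1.1, for an H3K79 enzyme (91.2, shared with zwl-1), and lin-59, for an Ash1-like protein (34.06).

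Demethylase genes had peaks in 2 of 11 cases, jmjd-1.2 (72.6, in a window shared with mrps-21 and F29B9.11) and the H3K4 demethylase gene rbr-2 (38.9). The rbr-2 peak ranked 5998 in replicate 1 and 700 in replicate 2, so it rests mainly on replicate 2. Of 10 readers and partners, 2 had one, the chromodomain genes mrg-1 (95.8, shared with spcs-2) and cec-3 (32.4, shared with sds-22 and T09A5.15). The heterochromatin protein genes hpl-1 and hpl-2 and the MET-2 partner genes lin-65 and arle-14 had none.

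**Figure D4:**
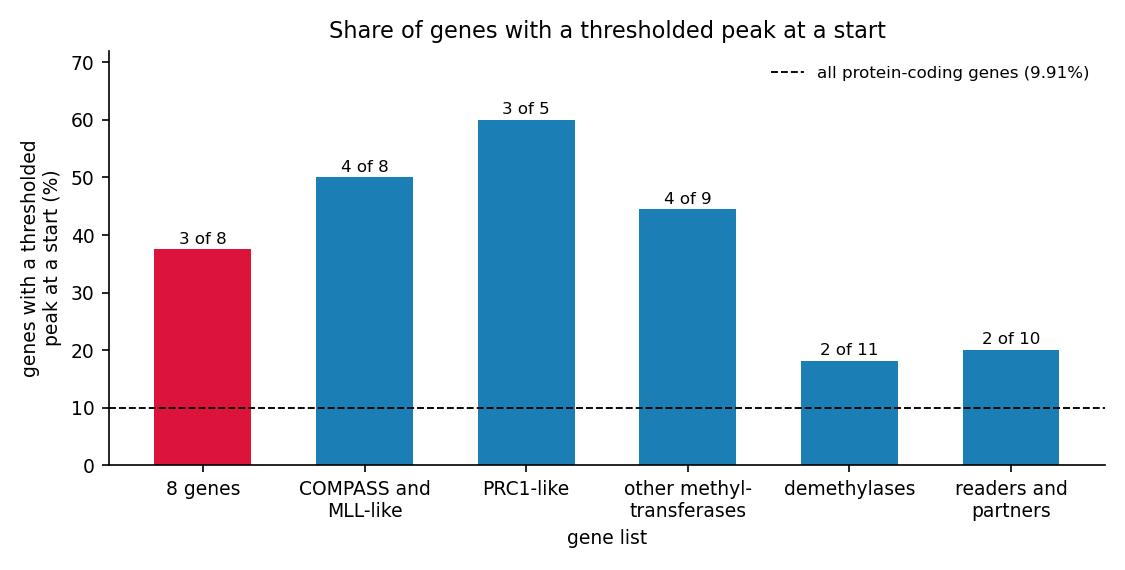
Percentage of genes with a thresholded peak at a start for the 8 genes and 5 lists of other histone methylation genes, with the counts above the bars and a dashed line at 9.91% for all protein-coding genes. The 8 genes stand at 37.5% (3 of 8), and the lists range from 18.2% (2 of 11 demethylases) to 60.0% (3 of 5 genes like Polycomb repressive complex 1).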

How the data were processed

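The data are ChIP-seq of tagged CEH-82 from whole L1 larvae, in 2 biological replicates. Chromatin was sonicated, per the labels. The authors aligned reads and called peaks on ce10 and ce11, per the file headers. Neither the aligner nor the peak caller is named there or in the labels. The deposited ce11 lists give each peak's interval, summit, signal, which is the authors' own score, and the deposited -log10 q value. The ce10 lists were not used, and no coordinate was converted. Read depth is unknown.

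Summits were assigned to genes of the Ensembl release 115 annotation of WBcel235, the build that ce11 names. The RefSeq sequence is longer than the last peak end on each chromosome, a check that could not tell apart builds of nearly the same length. Coordinates count from 1. The start window ran from 1000 bp upstream to 200 bp downstream. Replicate peaks were matched by at least 1 bp of overlap. Counts are set beside the same count over all protein-coding genes, and no test was made, because the members and lists were chosen with earlier results of these data known.

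The genes named are the 8 members, genes that share a peak with them or have the thresholded peak nearest to them, members of 5 lists and the genes of most similar signal. List members without a peak, upstream neighbours of the members and TCGCGC were picked after their values were seen. Alternatives were other windows, any overlap, peaks that fall in 1 gene's window only, a stricter threshold, the whole peak for motifs, the highest q and each replicate alone. The counting was tested on simulated data, where 200 of 200 planted peaks were recovered. Calculations used Python 3.11.15, NumPy 2.4.6, pandas 2.3.3 and matplotlib 3.10.9.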

Additional observations from a re-analysis of the deposited data

How the results depend on the processing

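The count of 3 genes with a thresholded peak at a start (mes-2, met-1, set-2) was the same with windows of 500 bp (8.24% of all genes) or 2000 bp upstream (12.6%), with any overlap (10.3%) and when peaks shared between genes were dropped (4.29%). Of the 43 other histone methylation genes, 15 had one with 1000 bp upstream, 11 with 500 bp and 18 with 2000 bp. Those lost at 500 bp were lin-59, rbr-2, set-26 and sop-2. Leaving out replicate 1 gave 3 of the 8 genes at a start (9.86% of all genes) and 3 at a start or inside (10.8%). Leaving out replicate 2 gave 4 at a start (9.14%) and 4 at a start or inside (10.3%), the fourth being mes-6. With the stricter threshold, signal above the median of the list, 1 gene remained by either rule, mes-2, while met-1 and set-2 fall below that median. That setting left 1135 of all genes at a start (5.68%), 6.15% at a start or inside, and 9 of the 43 other genes at a start. Dropping the shared peaks left 856 of all genes and 7 of the 43. The members' range of length, a setting chosen after seeing the data, held 960 genes with a peak (11.5%). With entries at the highest q alone, 4 of the 8 genes had a pooled entry (the thresholded ones and set-25, beside 15.2% of all genes) and 3 had entries of both replicates (beside 9.51%). Leaving out a replicate put all protein-coding genes with a peak at 1825 to 1969 and the other genes at 13 to 14. Without one replicate, mes-2 ranked 237 to 372, met-1 993 to 1249 and set-2 1491 to 1995. Over whole peaks, the thresholded peaks with GAGAGA numbered 1, with CTGCGTCT 1 and with TCGCGC 2, where windows are longer. No paired analysis was possible because there is 1 group and no comparison between groups. Depth is unknown, so absence from a list means only that no peak was called.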
